A study of Homo sapiens with 3 samples.

Results

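IGFBP2, IGFBP3, IGFBP4 and IGFBP5, which encode secreted insulin-like growth factor (IGF) binding proteins, and IGF1R, which encodes the receptor for IGF1, were followed across the hormone-rich cells of stem-cell-derived islets. They were taken by name, as 5 of the 36601 genes in the deposited count tables, and with earlier results of these data known. The islets came from HUES8 cells, a human embryonic stem cell line, so all values rest on 1 line. Dispersed cells were put through a magnetic sort with an antibody against CD49a, an integrin subunit. The CD49a-positive fraction, the CD49a-negative fraction and unsorted cells were each left to form aggregates for 7 days, then dispersed again and sequenced by the 10x droplet method as 1 library per group. With 1 library per group the 3 groups could not be tested against each other. The 4 kinds of hormone-rich cell were present in every library and could be tested over the 3 libraries.

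IGF1 and IGF2 act mainly through IGF1R, a receptor tyrosine kinase close to the insulin receptor. IGF binding proteins hold these ligands in the extracellular space, which can withhold them from the receptor or prolong their life, and proteases such as PAPPA cut the binding proteins and release the ligand. In islets, IGF1R and the insulin receptor feed the same adaptors and kinases.

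The 5 members lie on 4 chromosomes. On GRCh38 (GENCODE release 29), IGFBP2 lies on chromosome 2 from 216632828 to 216664436 on the plus strand. IGFBP5 is its neighbour on the minus strand, from 216672105 to 216695525, with 7668 bases between their 3′ ends and 0 annotated genes in that gap. IGFBP3 lies on chromosome 7 (45912245 to 45921874, minus strand), IGFBP4 on chromosome 17 (40443461 to 40457731, plus strand) and IGF1R on chromosome 15 (98648539 to 98964530, plus strand). The RefSeq promoter windows of the 5 members (GRCh38.p14) were searched on the coding strand for a TATA-type hexamer (TATAAA or TATATA or TATTTA) starting 40 to 16 bases before the transcription start. The windows shown run from 70 bases before the start to 10 bases into the transcript, 5′ to 3′ on the coding strand. Capitals mark that hexamer or, only in windows without it, GGGCGG. IGFBP2 has 3 RefSeq starts, and the window shown belongs to the start at 216633420.
IGFBP2 (chr2:216633350-216633429, plus strand): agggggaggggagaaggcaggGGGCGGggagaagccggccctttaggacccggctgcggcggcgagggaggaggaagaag
IGFBP3 (chr7:45921263-45921342, minus strand): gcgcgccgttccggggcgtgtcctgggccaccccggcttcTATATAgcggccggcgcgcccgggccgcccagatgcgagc
IGFBP4 (chr17:40443380-40443459, plus strand): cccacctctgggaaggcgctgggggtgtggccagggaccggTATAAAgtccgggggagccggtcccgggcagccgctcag
IGFBP5 (chr2:216695540-216695619, minus strand): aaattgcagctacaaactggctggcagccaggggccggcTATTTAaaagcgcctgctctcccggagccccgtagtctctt
IGF1R (chr15:98648469-98648548, plus strand): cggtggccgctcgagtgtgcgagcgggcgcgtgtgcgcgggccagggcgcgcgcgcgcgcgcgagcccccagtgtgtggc
IGFBP3, IGFBP4 and IGFBP5 each held such a hexamer, starting 30, 29 and 31 bases before the start, and 3.94% of 35116 RefSeq promoter windows held one at this distance. None was found in the 3 IGFBP2 windows or in that of IGF1R, whose full window of 300 bases had a GC content of 79.7%. GGGCGG, on either strand, occurred in 45.0% of all windows of that length. The full windows of IGFBP3, IGFBP4 and IGF1R held 2 each, that of the IGFBP2 start shown 1 and that of IGFBP5 0. It therefore does not set IGFBP2 apart. The matches describe these letters only.

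Counts are of unique molecular identifiers (UMIs). A barcode was taken as a cell at 1000 or more genes and a mitochondrial share of 20% or less, which held for 6626 of 9889, 2394 CD49a-positive, 1976 CD49a-negative and 2256 unsorted. Their median depth was 48538.5, 36997 and 42361 UMIs in that order, and 4 barcodes were shared between libraries. The filter left out 46.9% of CD49a-positive, 23.0% of CD49a-negative and 19.7% of unsorted barcodes. The barcodes left out had median depths of 781, 2532 and 2805 UMIs and median mitochondrial shares of 8.23%, 50.5% and 35.3%. A cell was called INS-rich, GCG-rich or SST-rich at 30000 or more UMIs of that hormone per 1000000 UMIs (CPM), and TPH1-rich at 300 CPM and at least 5 UMIs of TPH1, the enzyme that starts serotonin synthesis. Cells past exactly 1 gate formed 4 classes of 2759 INS-rich, 958 GCG-rich, 176 SST-rich and 744 TPH1-rich cells, while 481 cells passed several gates and 1508 none. The gates are ranges and not types: 982 cells lay within 1.5-fold of the INS gate, 554 of the GCG gate, 164 of the SST gate and 565 of the TPH1 gate. Apart from the gate genes, 9 of 9 beta, 6 of 6 alpha, 3 of 4 delta and 6 of 6 enterochromaffin markers were highest in INS-rich, GCG-rich, SST-rich and TPH1-rich cells respectively, and the delta marker RBP4 was highest in INS-rich cells. The SST-rich sums also held PPY and GHRL, hormones of other islet cells, at a summed 110 to 303 CPM, against at most 14.4 CPM in the other classes. The mesenchymal markers, a list of 6, summed to between 1.05 and 20.8 CPM in every class and library.

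UMIs were summed per library and class, because cells of 1 library are not replicates, and the 12 sums were fitted together with edgeR's quasi-likelihood test with the library as a block. P-values were adjusted by Benjamini-Hochberg over all genes and all 6 class contrasts, and a gene was called at an adjusted p below 0.05. They measure how far class differences vary between these 3 libraries, which were sorted differently and are not known to come from separate cultures. IGFBP2, IGFBP3, IGFBP5 and IGF1R passed the filter of 10 UMIs in at least 3 sums. IGFBP4 did not and was not tested.

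The 4 tested members fell into opposite patterns. IGFBP2 was highest in GCG-rich cells and lowest in INS-rich cells, IGFBP5 and IGF1R were highest in INS-rich cells, and IGFBP3 was high in INS-rich and TPH1-rich cells and low in GCG-rich and SST-rich cells. All 4 were called between INS-rich and GCG-rich cells, a contrast in which 33.7% of 18832 genes were called, and all 4 between INS-rich and SST-rich cells, where 22.6% were. IGFBP2, IGFBP5 and IGF1R, 3 of the 4, were called between INS-rich and TPH1-rich cells, against 34.7% of genes. The same number, 3 of 4, was reached between GCG-rich and SST-rich cells (19.6% of genes), between GCG-rich and TPH1-rich cells (43.1%) and between SST-rich and TPH1-rich cells (26.7%).

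**Figure D1:**
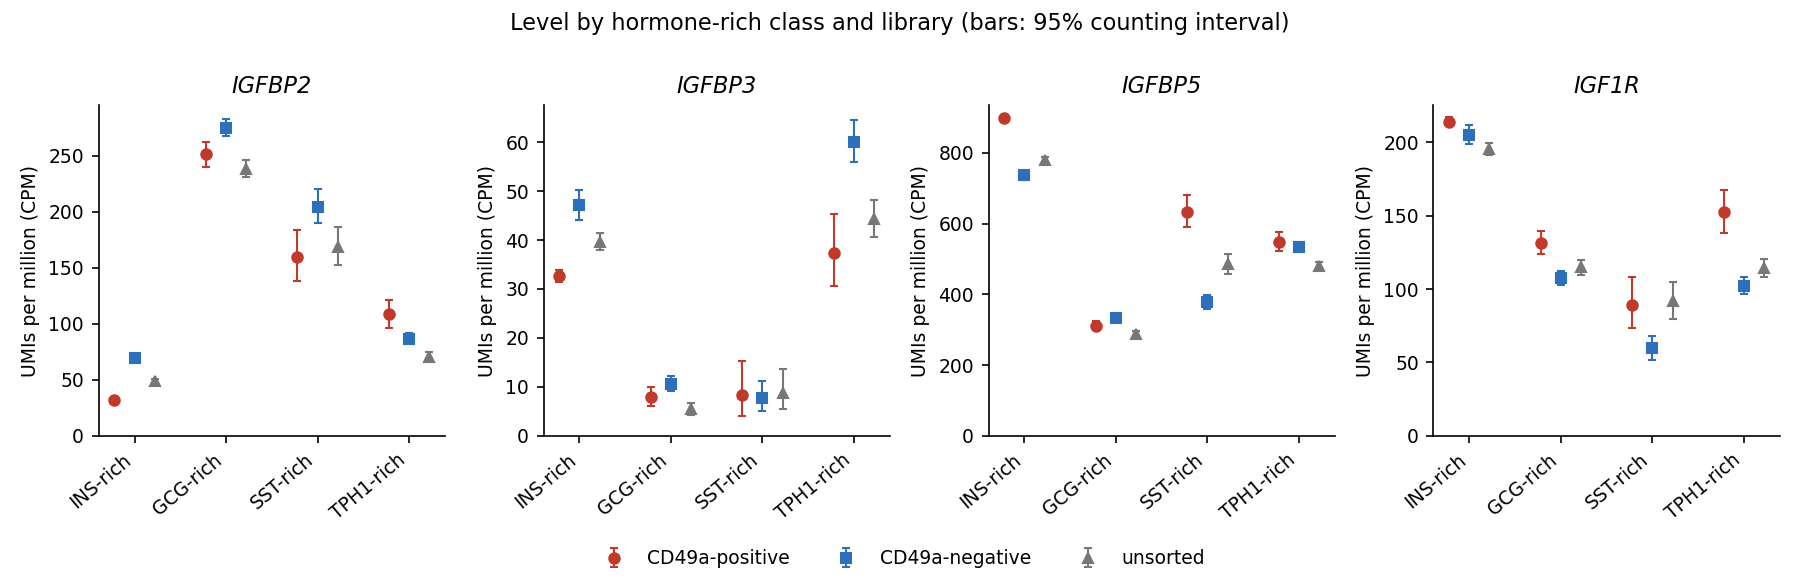
Levels of IGFBP2, IGFBP3, IGFBP5 and IGF1R in CPM (vertical axis, from 0) in the 4 hormone-rich classes (horizontal axis), with 1 point per library and bars for the exact 95% Poisson interval of the count. The 3 IGFBP2 points of GCG-rich cells, from 239 to 275, stand above all others in that panel, and the 3 IGFBP5 points of INS-rich cells, from 736 to 897, stand above all others in theirs.

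IGFBP2, a binding protein long known from liver and fetal tissues, reached 251 CPM in CD49a-positive, 275 CPM in CD49a-negative and 239 CPM in unsorted GCG-rich cells. In INS-rich cells the values were 32.3, 69.5 and 48.5 CPM in the same order. The ranges of these classes did not come near each other, and the GCG-rich mean of 255 ± 18.4 CPM (SD, n = 3 libraries) compared with 50.1 ± 18.7 CPM in INS-rich cells. SST-rich cells lay below GCG-rich cells, at 160, 205 and 169 CPM, and TPH1-rich cells lay lower again, at 108, 86.9 and 70.3 CPM. No pair of neighbouring classes in this order overlapped. The part of PPY and GHRL cells in the SST-rich level was not tested. Cells past no gate held 75, 206 and 146 CPM.

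On the log2 scale IGFBP2 was 2.39 lower in INS-rich than in GCG-rich cells (log2 ratio -2.39, SE 0.167, edgeR adjusted p = 1.53e-08). It was also lower in INS-rich than in SST-rich cells (log2 ratio -1.77, SE 0.179, adjusted p = 1.06e-06). GCG-rich cells exceeded TPH1-rich cells by 1.74 (SE 0.172, adjusted p = 8.28e-07) and SST-rich cells exceeded TPH1-rich cells by 1.11 (SE 0.185, adjusted p = 0.000207). These 4 differences were called in each alternative that gave them. The smaller steps depended on how cells were classed. The INS-rich against TPH1-rich ratio of -0.65 (adjusted p = 0.00797) fell to -0.08 (adjusted p = 0.666) when classes were taken from clusters, the cause of which was not tested. The GCG-rich against SST-rich ratio of 0.63 (adjusted p = 0.0118) was 0.13 (adjusted p = 0.743) with halved gates. It was 0.63 with an adjusted p of 0.0744 when the unsorted library was left out, and 0.61 with an adjusted p of 0.0636 without the library block, the third of the 15 alternatives in which the call was lost.

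IGFBP5, which also binds extracellular matrix, ran the other way. Its INS-rich values were 897, 736 and 780 CPM in CD49a-positive, CD49a-negative and unsorted cells, and its GCG-rich values were 311, 333 and 289 CPM. INS-rich cells were above every other class in every library: TPH1-rich cells held 548, 535 and 480 CPM and SST-rich cells 634, 378 and 485 CPM. The TPH1-rich and SST-rich ranges overlapped, with means of 521 ± 35.9 and 499 ± 128 CPM (SD, n = 3 libraries). The log2 ratio of INS-rich over GCG-rich cells was 1.36 (SE 0.115, adjusted p = 1.36e-07), over SST-rich cells 0.82 (SE 0.117, adjusted p = 4.63e-05) and over TPH1-rich cells 0.78 (SE 0.114, adjusted p = 5.44e-05). GCG-rich cells were below TPH1-rich cells (log2 ratio -0.58, adjusted p = 0.00101) and below SST-rich cells (-0.54, adjusted p = 0.00205), the latter no longer called without the unsorted library (-0.51, adjusted p = 0.0673). SST-rich and TPH1-rich cells were not separated (-0.03, SE 0.118, adjusted p = 0.872).

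Across the 12 sums the neighbouring genes IGFBP2 and IGFBP5 had a Pearson correlation of -0.89 in log2 level, as a description of sums that share libraries and depth. An antisense transcript annotated over IGFBP5, AC007563.2, was counted separately, with 28542 UMIs in all kept cells. Its level was 88.3 ± 6.92 CPM in INS-rich, 80.1 ± 13.0 in GCG-rich, 102 ± 23.3 in SST-rich and 93.4 ± 23.1 in TPH1-rich cells (SD, n = 3 libraries). These ranges all overlapped, unlike those of IGFBP5. Whether the authors' counting used strand is not given in the sources used here, and without it reads of overlapping genes cannot be told apart.

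IGFBP3, the main carrier of IGFs in blood, divided the classes into a high and a low pair. TPH1-rich cells held 37.4, 60.1 and 44.3 CPM in CD49a-positive, CD49a-negative and unsorted cells and INS-rich cells 32.7, 47.1 and 39.7 CPM, so these classes overlapped. GCG-rich cells held 7.85, 10.7 and 5.39 CPM and SST-rich cells 8.29, 7.74 and 8.82 CPM, which also overlapped. The lowest value of the high pair was above the highest value of the low pair. INS-rich cells exceeded GCG-rich cells by a log2 ratio of 2.35 (SE 0.127, adjusted p = 8.64e-10) and SST-rich cells by 2.46 (SE 0.202, adjusted p = 9.70e-08). GCG-rich cells were below TPH1-rich cells by -2.44 (SE 0.135, adjusted p = 1.13e-09), and SST-rich cells by -2.55 (SE 0.206, adjusted p = 8.30e-08). Each of these 4 differences was called in every alternative that gave it. Within the pairs no difference was called: INS-rich against TPH1-rich gave -0.09 (SE 0.109, adjusted p = 0.597) and GCG-rich against SST-rich 0.10 (SE 0.255, adjusted p = 0.806). The INS-rich against TPH1-rich difference was called in 2 of 17 alternatives, over which its log2 ratio ran from -0.32 to 0.33.

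The low IGFBP3 counts were small enough for RNA from other cells to matter. The SST-rich values rested on 10, 27 and 20 UMIs and the GCG-rich values on 64, 198 and 87. INS, which GCG-rich cells should largely lack, was counted in them at 8744, 8500 and 8644 CPM. RNA carried over from INS-rich cells at their own ratio of IGFBP3 to INS would amount to 3.35, 4.99 and 3.73 CPM of IGFBP3 in the 3 libraries. For SST-rich cells the same reckoning gave 4.85, 5.38 and 5.23 CPM. The measured IGFBP3 level was above the one reckoned from INS-rich cells in each of these 6 sums. In CD49a-positive and CD49a-negative SST-rich cells the reckoned level lay within the measured counting interval (3.97 to 15.2 and 5.10 to 11.3 CPM). TPH1-rich cells, by their ratio of IGFBP3 to TPH1, would add 0.704, 3.52 and 2.53 CPM in SST-rich cells. In GCG-rich cells they would add 0.395, 2.55 and 1.04 CPM. Both sources together pass the measured 7.74 CPM in CD49a-negative SST-rich cells and stay below it in the others. Reckoned from INS-rich cells, IGFBP5 in GCG-rich cells came to 91.9, 77.9 and 73.4 CPM against measured values of 311, 333 and 289 CPM. Free RNA and INS made by the cells themselves cannot be told apart in these counts.

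IGFBP4 was nearly undetected. All kept cells together held 51 of its UMIs, 12 in CD49a-positive, 14 in CD49a-negative and 25 in unsorted cells, or 0.0981, 0.166 and 0.227 CPM. The INS-rich sums held 5, 0 and 10 UMIs and the GCG-rich sums 3, 2 and 3. SST-rich sums held 0, 1 and 3, and TPH1-rich sums 0, 0 and 1. The count of 0 in CD49a-negative INS-rich cells allows a level of up to 0.150 CPM, taking 3 counts as the limit. The counts of 0 allow up to 2.49 CPM in CD49a-positive SST-rich cells, and 1.06 and 0.234 CPM in CD49a-positive and CD49a-negative TPH1-rich cells. No order of classes could be read from these counts.

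IGF1R was highest in INS-rich cells, at 214, 205 and 196 CPM in CD49a-positive, CD49a-negative and unsorted cells. GCG-rich cells held 132, 108 and 115 CPM and TPH1-rich cells 152, 102 and 114 CPM, and these classes overlapped. SST-rich cells were lowest, at 89.5, 59.6 and 91.7 CPM. INS-rich cells exceeded SST-rich cells by a log2 ratio of 1.48 (SE 0.116, adjusted p = 5.59e-08), TPH1-rich cells by 0.93 (SE 0.101, adjusted p = 2.25e-06) and GCG-rich cells by 0.80 (SE 0.0980, adjusted p = 8.88e-06). SST-rich cells were also below GCG-rich cells (GCG-rich over SST-rich 0.68, adjusted p = 0.000308) and below TPH1-rich cells (-0.55, adjusted p = 0.00218). Each of these 5 differences was called in every alternative that gave it. GCG-rich and TPH1-rich cells were not separated (0.13, SE 0.102, adjusted p = 0.380), though this difference was called in 1 of 16 alternatives. The cells past no gate held more IGF1R than any class in CD49a-positive and unsorted libraries, at 281 and 200 CPM, and 146 CPM in the CD49a-negative library.

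In INS-rich and GCG-rich cells the IGF1R and IGFBP2 levels moved with MALAT1, an abundant nuclear RNA. In 1002 kept cells MALAT1 took under 0.25 of its library's median share. In INS-rich cells low in MALAT1, IGF1R was at 102, 93.1 and 91.3 CPM in CD49a-positive, CD49a-negative and unsorted cells, against 222, 231 and 206 CPM in the other INS-rich cells. IGFBP2 ran opposite, at 57.5, 96.4 and 78.0 CPM in the cells low in MALAT1 and 30.4, 63.4 and 45.6 CPM in the others. In GCG-rich cells low in MALAT1 IGFBP2 was at 586, 295 and 443 CPM, against 231, 271 and 219 CPM. The smaller classes were mixed. IGFBP2 in SST-rich cells low in MALAT1 was at 25.7, 165 and 284 CPM, from 3, 12 and 16 cells, against 174, 211 and 153 CPM in the others. In TPH1-rich cells it was at 38.5, 117 and 197 CPM, from 2, 38 and 22 cells, against 110, 82.7 and 62.5 CPM. IGF1R in cells low in MALAT1 was above the others in CD49a-negative SST-rich cells (66.9 against 58.5 CPM), about level in CD49a-positive TPH1-rich cells (154 against 152 CPM) and lower in the other 4 of these 6 sums. The INS-rich cells low in MALAT1 were also shallower, with a median of 4082.5, 34706.5 and 15273 UMIs against 61427, 44633.5 and 59685. The part of RNA quality in these levels was not tested. The class calls that stood in every alternative included the one without cells low in MALAT1. IGF1R spans 315992 bases, most of them intron, and whether intronic reads were counted is not given in the sources used here.

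Members differed in how widely they were spread over cells. To compare cells of unequal depth, each was thinned to 10000 UMIs, which left out 654 shallower cells. IGFBP5 was then seen in 97.6%, 96.5% and 97.7% of CD49a-positive, CD49a-negative and unsorted INS-rich cells (94.0%, 98.1% and 98.1% before thinning). IGF1R was seen in 76.2%, 75.1% and 74.9% of them (83.8%, 89.8% and 91.0% before). IGFBP2 was seen in 62.4%, 69.0% and 63.6% of GCG-rich cells and in 20%, 28.9% and 22.8% of INS-rich cells (82.1%, 89.7% and 85.1%, and 47.9%, 52.7% and 54.2%, before). IGFBP3 was seen in 20.4%, 22.5% and 22.6% of INS-rich cells and 6.63%, 5.84% and 3.88% of GCG-rich cells (46.1%, 51.7% and 52.9%, and 17.4%, 18.4% and 11.5%, before). The IGFBP2 share in GCG-rich cells thus exceeded that in INS-rich cells in each library by more than the exact binomial 95% intervals, which cover counting error only. So did the IGFBP3 share in the opposite direction.

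**Figure D2:**
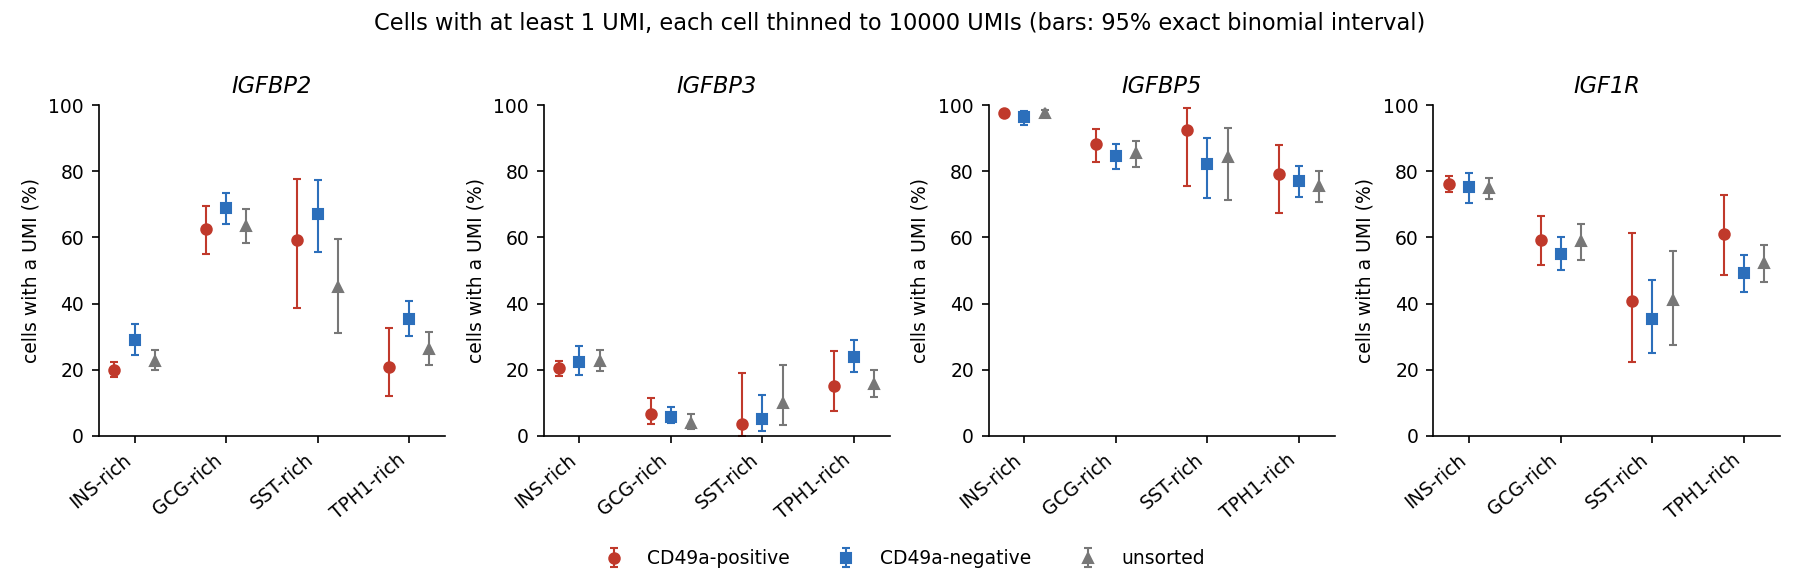
Share of cells with at least 1 UMI (vertical axis, percent) of IGFBP2, IGFBP3, IGFBP5 and IGF1R after thinning every cell to 10000 UMIs, by class (horizontal axis), with 1 point per library and bars for the exact binomial 95% interval. IGFBP2 is seen in 62.4% to 69.0% of GCG-rich cells and 20% to 28.9% of INS-rich cells.

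A few cells supplied much of some sums. In the 69 CD49a-positive TPH1-rich cells, the 5 richest cells held 222 of 307 IGFBP2 UMIs, or 72.3%, and 81 of 106 IGFBP3 UMIs, or 76.4%. In the 28 CD49a-positive SST-rich cells, the 5 richest held 69.4% of IGFBP2, 65.1% of IGFBP5 and 63.9% of IGF1R UMIs. By contrast the 5 richest of 1565 CD49a-positive INS-rich cells held 1.77% of IGFBP5 UMIs. Counting intervals therefore leave out the spread between cells in the smaller sums.

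The sorted libraries were compared next. Over all kept cells IGFBP2 was at 58.6 CPM in the CD49a-positive, 165 CPM in the CD49a-negative and 106 CPM in the unsorted library, so unsorted cells lay between the sorted fractions. The CD49a-positive value was 2.82-fold lower than the CD49a-negative value (95% counting interval 2.74 to 2.90). IGFBP5 ran opposite, at 788, 518 and 601 CPM, 1.52-fold higher in CD49a-positive cells (1.5 to 1.54). IGF1R was also higher there, at 208, 138 and 166 CPM, a ratio of 1.51 (1.48 to 1.54), and IGFBP3 was slightly lower, at 28.3, 34.8 and 32.5 CPM, a ratio of 0.811 (0.772 to 0.852). IGFBP2 was the 1 member of 5 to pass 2-fold, a size that 2.03% of 7985 eligible genes passed. With 1 library per group these are differences between libraries and no test applies.

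The libraries held different shares of each class. INS-rich cells made up 65.4% of CD49a-positive, 20.9% of CD49a-negative and 34.7% of unsorted cells, and GCG-rich cells, the class richest in IGFBP2, made up 8.15%, 20.6% and 15.8%. When the levels of the 4 classes and of the cells past several gates or none were weighted by their share of the unsorted library's UMIs, IGFBP2 came to 88.1 CPM for CD49a-positive and 137 CPM for CD49a-negative cells. The difference was then 1.55-fold and no longer passed 2-fold. IGFBP5 came to 683 and 584 CPM, IGF1R to 195 and 157 CPM, and IGFBP3 to 25.3 and 38.8 CPM in the same way. All 4 kept the direction they had over all cells, and IGFBP3 alone moved further from equality, to 1.53-fold lower in CD49a-positive cells.

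**Figure D3:**
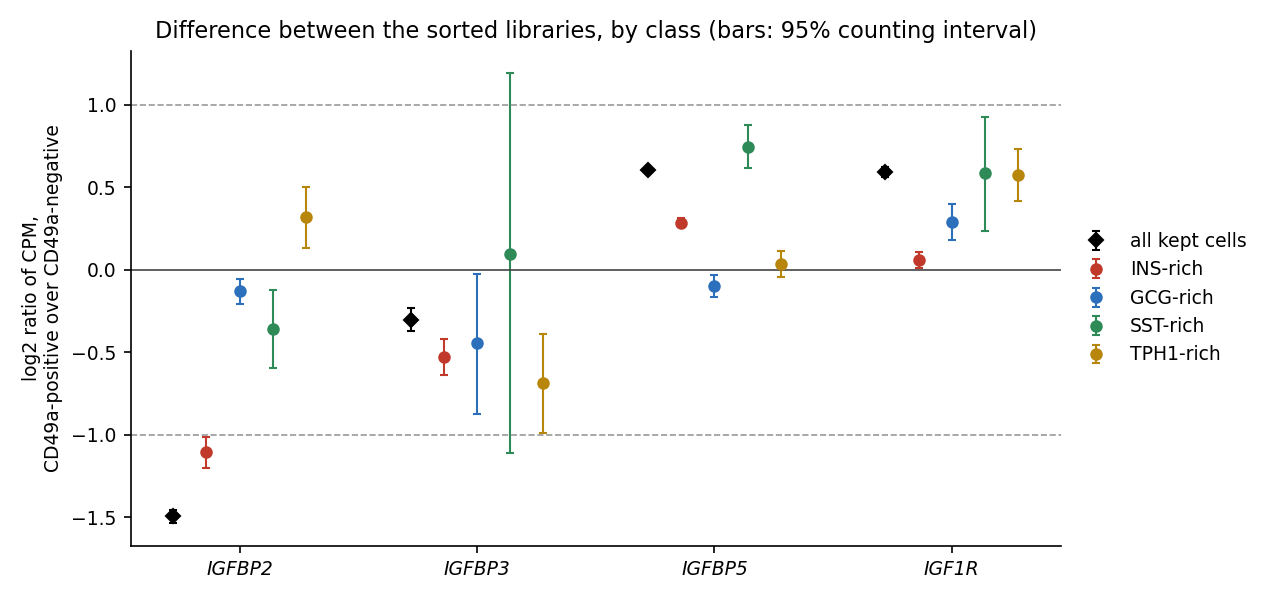
Log2 ratio of CPM in the CD49a-positive over the CD49a-negative library (vertical axis) for IGFBP2, IGFBP3, IGFBP5 and IGF1R (horizontal axis), over all kept cells (diamonds) and in each class (circles), with exact 95% intervals for counting error and dashed lines at 2-fold. IGFBP2 lies below -1 over all cells and in INS-rich cells, while its GCG-rich, SST-rich and TPH1-rich values lie between -0.36 and 0.32.

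Among the 4 classes IGFBP2 differed most between sorted libraries in INS-rich cells. There it was 2.15-fold lower in CD49a-positive than in CD49a-negative cells (2.02 to 2.30), at 32.3 against 69.5 CPM, with 48.5 CPM in unsorted cells. It was again the 1 member to pass 2-fold, as 0.26% of 7699 genes did. It kept its direction in 13 of 13 alternatives, with log2 ratios from -1.55 to -0.20, but no longer passed 2-fold with doubled gates, classes from clusters, thinning, 10 CPM added or only cells under 500 CPM of GCG. In GCG-rich cells the CD49a-positive over CD49a-negative ratio was 0.914 (0.868 to 0.962) and in SST-rich cells 0.781 (0.663 to 0.917). No member passed 2-fold in these classes or in TPH1-rich cells, where 0.271%, 2.32% and 3.91% of genes did. IGFBP3 was lower in CD49a-positive INS-rich cells (0.693, 0.643 to 0.746) and TPH1-rich cells (0.622, 0.503 to 0.763). IGFBP5 was 1.22-fold (1.20 to 1.24) and 1.68-fold (1.53 to 1.83) higher in CD49a-positive INS-rich and SST-rich cells, and IGF1R 1.49-fold higher in TPH1-rich cells (1.33 to 1.66). IGF1R hardly differed in INS-rich cells, with a ratio of 1.04 (1.01 to 1.08) whose direction turned in 7 of 13 alternatives. In cells past no gate, IGFBP2 was 2.74-fold lower (2.56 to 2.94) and IGFBP3 2.35-fold lower (2 to 2.77) in the CD49a-positive library, the latter at 14.2 against 33.3 CPM. These 2 members passed 2-fold there, as 5.83% of 8411 genes did.

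INS-rich cells richest in GCG held more IGFBP2 and less IGF1R than those poorest in GCG, in each library. For this comparison INS-rich cells were divided by GCG level after the data were seen. Those under 500 CPM of GCG made up 79.4% of CD49a-positive, 64.6% of CD49a-negative and 71.2% of unsorted INS-rich cells. In them IGFBP2 was at 23.9, 27.5 and 30.2 CPM, and the CD49a-positive value was 1.15-fold lower than the CD49a-negative value (1.01 to 1.30). In INS-rich cells with 10000 to 30000 CPM of GCG it was at 101, 137 and 108 CPM, several times higher in every library. The CD49a-positive value was there 1.36-fold lower (1.22 to 1.51). These cells were deeper, with a median of 88132, 68659 and 89677 UMIs against 54581.5, 40679.5 and 54450 under 500 CPM. Cells with 500 to 2000 CPM of GCG held 55.8, 41.6 and 54.1 CPM, the CD49a-positive value being 1.34-fold higher with an interval that included equality (0.986 to 1.85). Their median depth was 3417 UMIs in CD49a-positive, 29346 in CD49a-negative and 47809 in unsorted cells. Cells with 2000 to 10000 CPM of GCG held 45.1, 130 and 72.2 CPM, and the CD49a-positive value was 2.88-fold lower (2.43 to 3.42) from 89 and 35 cells. The difference between the sorted libraries thus varied in size among cells of like GCG level. A change of direction was not shown, since the interval at 500 to 2000 CPM included equality. The part of GCG content and of depth in this difference was not tested. IGFBP3 and IGFBP5 kept their directions in cells under 500 CPM of GCG, at 33.9, 57.6 and 41.9 CPM and at 912, 810 and 795 CPM. IGF1R ran opposite to IGFBP2, from 224, 254 and 216 CPM under 500 CPM of GCG to 152, 134 and 138 CPM at 10000 to 30000 CPM. At the ratio of IGFBP2 to GCG in GCG-rich cells, the GCG counted in all INS-rich cells stands for 5.45, 19.6 and 9.82 CPM of IGFBP2, of the 32.3, 69.5 and 48.5 CPM measured. That reckoning pools all INS-rich cells, in which GCG was at 1846, 5826 and 3841 CPM. At 10000 to 30000 CPM of GCG, the mean GCG level was 18337, 19114 and 19038 CPM. The pooled figures therefore do not give the part of IGFBP2 reckoned in that group, where it is larger. Without the highest Scrublet doublet scores the log2 ratio of IGFBP2 over all INS-rich cells was -1.19, against -1.11 with them.

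**Figure D4:**
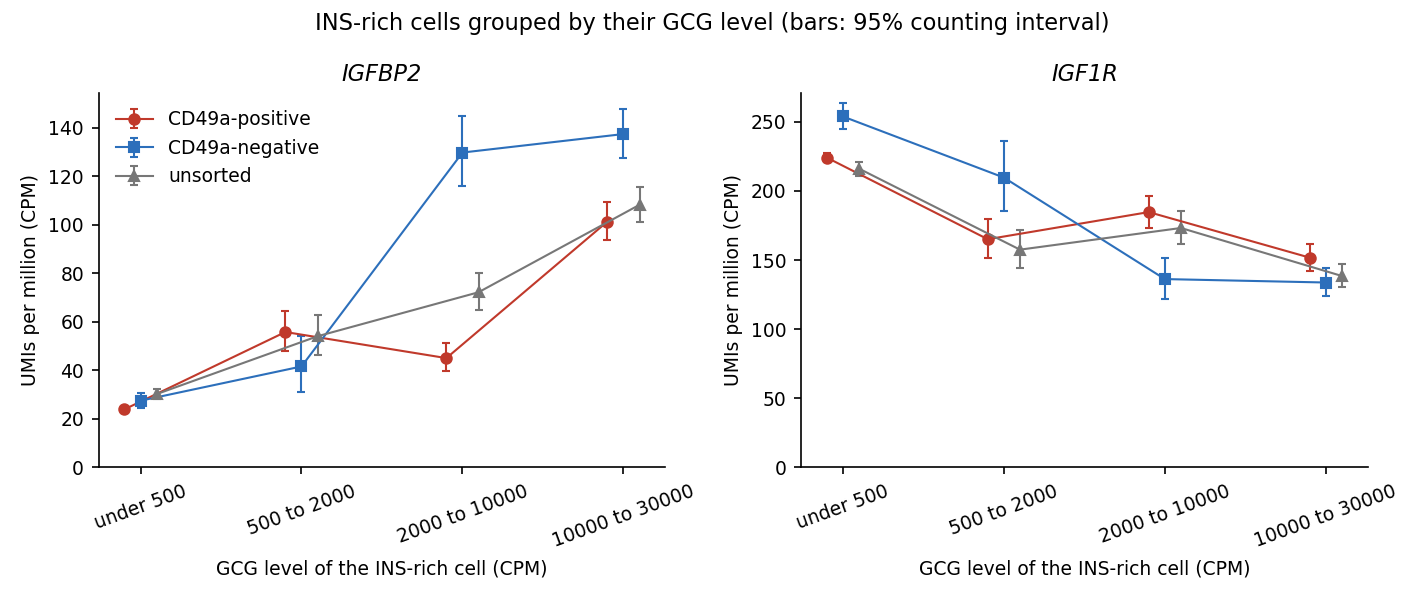
Levels of IGFBP2 and IGF1R in CPM (vertical axes, from 0) in INS-rich cells grouped by their GCG level (horizontal axis, CPM), with 1 line per library and bars for the exact 95% Poisson interval. Under 500 CPM of GCG the 3 libraries hold 23.9 to 30.2 CPM of IGFBP2, and from 10000 to 30000 CPM they hold 101 to 137 CPM.

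The 208 cells past both the INS and the GCG gates lay between the classes. Their IGFBP2 was at 101 CPM in CD49a-positive, 184 CPM in CD49a-negative and 188 CPM in unsorted cells, below GCG-rich and above INS-rich cells in each library. Their IGFBP5, at 707, 506 and 619 CPM, was between the same classes. Their median depth was 75337.5 UMIs, against 53939 in INS-rich and 39601.5 in GCG-rich cells. Cells that make both hormones and droplets with more than 1 cell cannot be told apart there.

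TPH1-rich cells were the class in which IGFBP2 went the other way between the sorted libraries. It was at 108 CPM in CD49a-positive, 86.9 CPM in CD49a-negative and 70.3 CPM in unsorted TPH1-rich cells, a CD49a-positive over CD49a-negative ratio of 1.25 (1.10 to 1.42). The share of thinned cells with a UMI went against this, at 20.9%, 35.3% and 26.2%. The log2 ratio of 0.32 was 0.05 when every cell counted equally, -0.05 after thinning, -0.59 with doubled gates and -0.92 with classes from clusters. No direction can be read from it.

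The other genes of the IGF axis were taken as 7 lists by role, 45 genes in all, of which 41 passed the filter. Between INS-rich and GCG-rich cells 23 were called, 17 higher in INS-rich and 6 in GCG-rich cells, with a median log2 ratio of 0.23 against -0.02 over all genes, of which 33.7% were called. Between INS-rich and SST-rich cells 10 of 41 were called, 7 of them higher in INS-rich cells, a share near the 22.6% of all genes. Between INS-rich and TPH1-rich cells 25 were called, 13 of them higher in INS-rich cells (34.7% of all genes). GCG-rich against SST-rich cells gave 14, with 7 in each direction (19.6% of all genes). GCG-rich against TPH1-rich cells gave 21, of which 14 were higher in TPH1-rich cells (43.1% of all genes), and SST-rich against TPH1-rich cells 18, of which 12 were (26.7%). These counts changed with the libraries used, and leaving out a library leaves fewer sums for every gene. The share of all genes called in those fits is not given here. The lower counts are therefore not read as a trait of the axis genes. Without the unsorted library the INS-rich against GCG-rich count was 11, the INS-rich against TPH1-rich count 14, the GCG-rich against SST-rich count 5 and the SST-rich against TPH1-rich count 9. Without the CD49a-negative library the INS-rich against SST-rich count was 5 and the GCG-rich against SST-rich count 7.

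Of the 5 ligands and other receptors, 3 were tested, and calls were made between INS-rich and TPH1-rich (2, against 34.7% of all genes), GCG-rich and SST-rich (1, against 19.6%) and SST-rich and TPH1-rich cells (2, against 26.7%). The ligands were scarcely counted. IGF1 had 10 UMIs in all kept cells and IGF2 had 819, with class means of 1.40 to 4.10 CPM. IGF2 was called higher in SST-rich than in GCG-rich cells (GCG-rich over SST-rich -1.44, adjusted p = 0.0175) and TPH1-rich cells (1.79, adjusted p = 0.00762). Of the other receptors, IGF2R, which takes IGF2 into lysosomes, had an adjusted p of 0.102 to 0.952 over the 6 contrasts. INSR, the insulin receptor, was higher in TPH1-rich cells than in INS-rich (INS-rich over TPH1-rich -0.37, adjusted p = 0.00417) and SST-rich cells (-0.52, adjusted p = 0.00163).

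Proteases of the binding proteins and their inhibitors held the largest class difference of the axis genes named here. All 8 were called between GCG-rich and TPH1-rich cells, 6 of them higher in TPH1-rich cells, against 43.1% of all genes. Between INS-rich and GCG-rich cells 6 of the 8 were called, 5 of them higher in INS-rich cells, against 33.7% of all genes. STC1, a stanniocalcin that blocks PAPPA, was at 82.2, 175 and 145 CPM in CD49a-positive, CD49a-negative and unsorted TPH1-rich cells and at 2.58, 6.41 and 6.26 CPM in GCG-rich cells (GCG-rich over TPH1-rich -4.53, adjusted p = 4.11e-12). STC2, its relative, ran opposite, at 4.94, 4.76 and 4.53 CPM in TPH1-rich and 29.7, 27.2 and 24.2 CPM in GCG-rich cells (2.67, adjusted p = 8.75e-09). PAPPA itself, a protease that cuts IGFBP4 and IGFBP5, was low but higher in TPH1-rich than in GCG-rich cells (-2.93, adjusted p = 4.58e-06), with means of 4.73 and 0.610 CPM. PAPPA2 was higher in TPH1-rich than in INS-rich cells (INS-rich over TPH1-rich -1.44, adjusted p = 0.00146). HTRA1, a secreted protease, was highest in SST-rich cells, with a mean of 149 CPM against 50.9 CPM in GCG-rich cells (GCG-rich over SST-rich -1.40, adjusted p = 6.47e-08). ADAM12, a metalloprotease, was lowest in GCG-rich cells (INS-rich over GCG-rich 2.09, adjusted p = 2.73e-08).

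**Figure D5:**
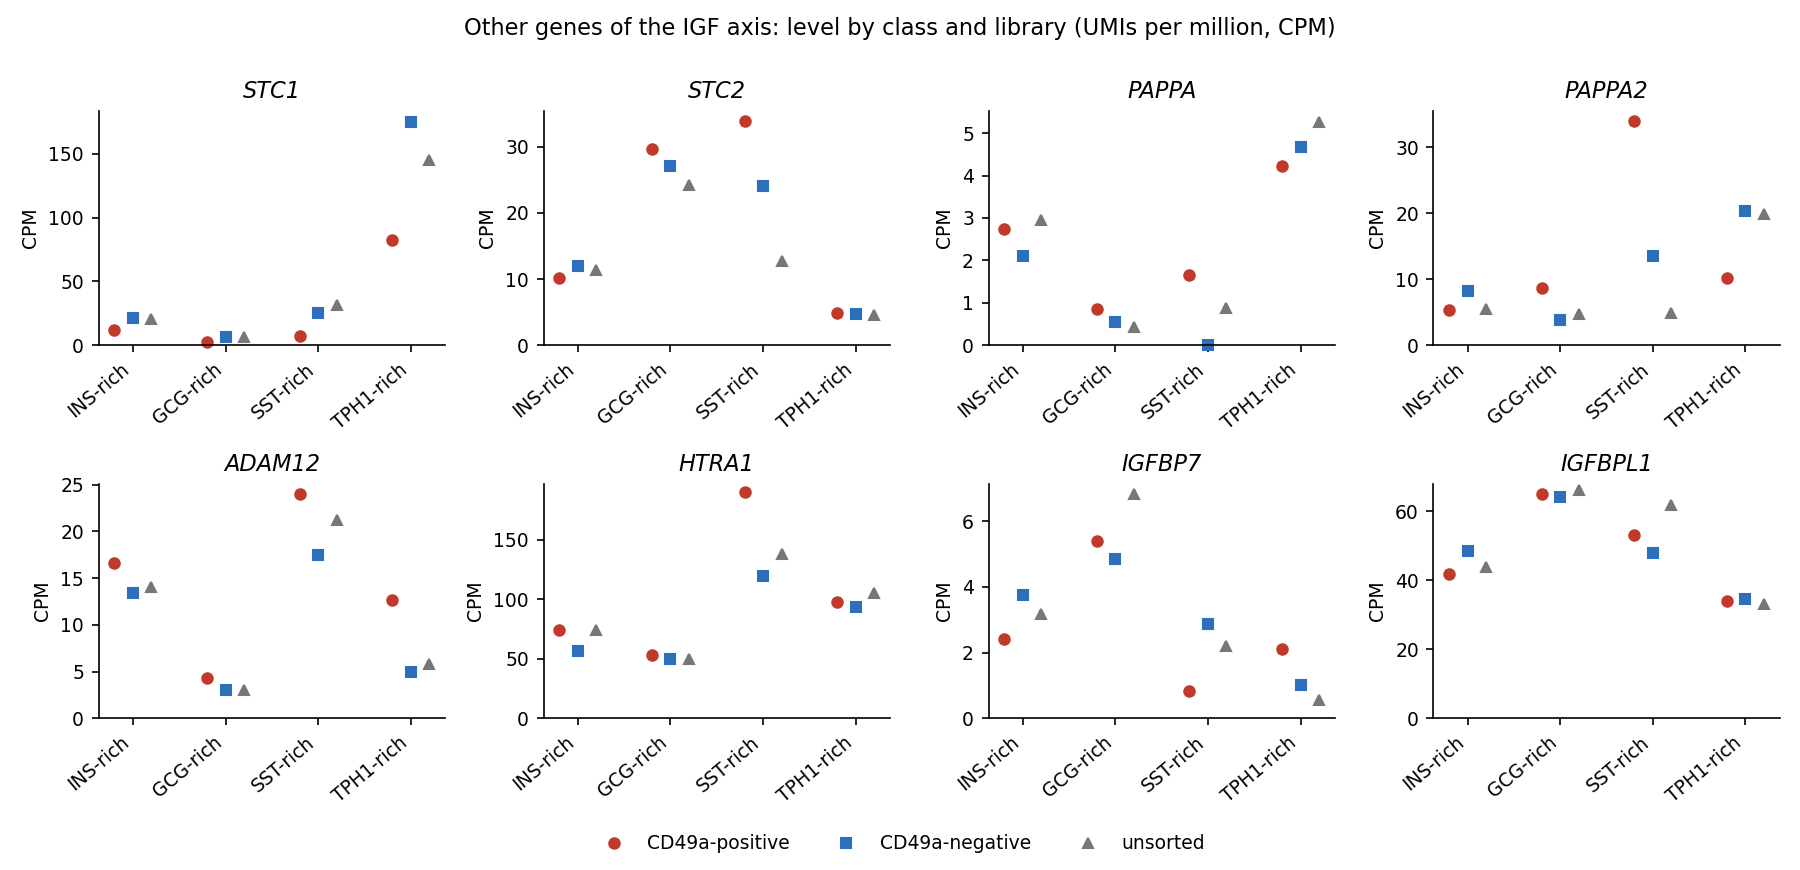
Levels of 8 other genes of the IGF axis in CPM (vertical axes, from 0) by class (horizontal axis), with 1 point per library. STC1 reaches 82.2 to 175 CPM in TPH1-rich cells and at most 31.3 CPM elsewhere, and STC2 is at 4.53 to 4.94 CPM in TPH1-rich cells and at least 10.1 CPM elsewhere.

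Among the binding protein relatives, IGFBP7 and IGFBPL1 shared the GCG-rich side with IGFBP2. IGFBP7 had a mean of 5.69 CPM in GCG-rich and 1.23 CPM in TPH1-rich cells (GCG-rich over TPH1-rich 2.78, adjusted p = 7.27e-06), and IGFBPL1 had 65.1 and 33.9 CPM (1.11, adjusted p = 4.89e-08). All 4 tested genes of this list were called between INS-rich and TPH1-rich cells, each higher in INS-rich cells, against 34.7% of all genes. IGFBP1 had 124 UMIs in all. IGFALS, the acid-labile subunit that joins IGFBP3 in blood, was higher in INS-rich than in GCG-rich cells (1.64, adjusted p = 5.99e-05).

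Inside the cell, 4 of 7 tested adaptors, 6 of 13 genes of the PI3K, AKT and TOR pathway, 2 of 3 FOXO factors and 2 of 3 IGF2 mRNA-binding proteins were called between INS-rich and GCG-rich cells, where 33.7% of all genes were. GRB10, an adaptor that restrains insulin and IGF receptors, followed IGF1R in being highest in INS-rich cells, with a mean of 100 CPM against 58.1 in GCG-rich, 41.0 in SST-rich and 62.5 in TPH1-rich cells (INS-rich over GCG-rich 0.80, adjusted p = 0.000401). AKT1, a kinase below these receptors, did so too, with 92.2 CPM against 44.8 CPM in GCG-rich cells (1.04, adjusted p = 1.58e-07). GRB14 was highest in GCG-rich cells (INS-rich over GCG-rich -0.96, adjusted p = 3.62e-06). IRS1 and IRS2, docking proteins of these receptors, were higher in TPH1-rich than in INS-rich cells (INS-rich over TPH1-rich -0.43, adjusted p = 0.00146, and -0.67, adjusted p = 0.000546). FOXO1, a factor that AKT keeps out of the nucleus, was higher in INS-rich than in TPH1-rich cells (0.92, adjusted p = 1.57e-05).

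The axis genes past 2-fold between the sorted libraries are given beside the share of all eligible genes that passed. Over all kept cells 1 of 31 eligible axis genes passed, against 2.03% of all genes. This was STC1, at 13.8 CPM in CD49a-positive and 47.3 CPM in CD49a-negative cells, a 3.42-fold lower level (3.23 to 3.63). In TPH1-rich cells it was 2.13-fold lower in CD49a-positive cells (1.86 to 2.45), while GRB10 and FOXO1 were 2.43-fold (2.09 to 2.81) and 2.17-fold (1.98 to 2.38) higher. Of 32 eligible axis genes in that class, 2 were thus higher and 1 lower past 2-fold, against 3.91% of all genes. In SST-rich cells STC1 was 3.34-fold lower (1.68 to 7.56), from 9 and 87 UMIs, and GRB10 2.13-fold higher (1.58 to 2.86). These were 1 lower and 1 higher of 28 eligible axis genes, against 2.32% of all genes. None of 31 eligible passed in INS-rich cells or of 30 in GCG-rich cells, where 0.26% and 0.271% of all genes did.

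The genes most like each member over the 12 sums were found among 7742 genes by Pearson correlation of log2 CPM, a description of sums that share libraries. Most like IGFBP2 were VIM (r = 0.95), which encodes an intermediate filament, ZNF83 (0.95) and VSTM2L (0.95). VIM had class means of 819 CPM in GCG-rich, 501 in SST-rich, 213 in TPH1-rich and 136 in INS-rich cells, the same order as IGFBP2. Most like IGFBP3 were NKX6-1 (0.98), a transcription factor of beta cells, SLC17A6 (0.97), a vesicular glutamate transporter, and ABHD10 (0.97). NKX6-1 had 122 and 114 CPM in INS-rich and TPH1-rich and 14.6 and 22.5 CPM in GCG-rich and SST-rich cells. IGFBP5 was most like ZBTB38 (0.98), PTCH1 (0.98), which encodes the Hedgehog receptor, and GOLGA3 (0.97). IGF1R was most like MLXIPL (0.96), a glucose-responsive transcription factor, and ADAMTS2 (0.95), a procollagen protease. MLXIPL had 83.8 CPM in INS-rich, 44.0 in GCG-rich, 35.2 in SST-rich and 42.6 in TPH1-rich cells.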

How the data were processed

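The authors deposited UMI counts of genes in barcodes. Per the submitters' processing notes, Cell Ranger 7.1.0 and the GRCh38 build were used. The libraries held 127119509 (CD49a-positive), 88397368 (CD49a-negative) and 114479071 (unsorted) UMIs. The members, gene lists, gates and markers were chosen with earlier results of these data known. The genes named were the members, the listed IGF axis genes called or past 2-fold, the 3 genes most like each member (log2 of CPM plus 10, mean of at least 20 CPM) and class markers; 1 gene of this choice is not reported here.

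Counts were summed per library and class and tested with edgeR 4.0.16 in R 4.3.3 (TMM scaling, genes with at least 10 UMIs in at least 3 of 12 sums, library as a block), without the 4 gate genes in counts of calls. All 4 classes of a library came from 1 suspension, which is what the block pairs. On simulated INS-rich against GCG-rich counts of 18394 genes, 74.6% of 1.5-fold, 97.0% of 2-fold and 100% of 4-fold changes were called, and 0.115% of unchanged genes. The changes were placed in 67, 67 and 66 genes, drawn only from genes with higher counts, and no library effect was simulated. The rates therefore do not hold for genes of low count, nor where many genes differ, as between the real classes. Libraries were compared without a test, as folds with exact conditional intervals at 95%; only genes that reached 20 CPM and 50 UMIs in 1 of the compared libraries were eligible. Intervals and limits of 3 counts cover counting error only. Doublets were not removed; an alternative left out the highest 5% of Scrublet scores in each library. Alternatives changed gates, cell filters, scaling, low-count filters, classes (17 Leiden clusters, scanpy 1.11.5), depth (10000 UMIs) and the libraries used, with DESeq2 1.42.0 as a further test. Promoter windows matched 5 of 5 members.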

Additional observations from a re-analysis of the deposited data

Results flagged for a closer look

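The CD49a-positive over CD49a-negative ratio of IGFBP2 was above 1 in TPH1-rich cells and below 1 in the other classes, with counting intervals that left out 1 on both sides. The log2 ratio in TPH1-rich cells exceeded that in INS-rich cells by 1.43, that in SST-rich cells by 0.67 and that in GCG-rich cells by 0.45. These differences between classes were not tested, since each rests on 1 library per group, and the direction turned in 3 of 12 alternatives in TPH1-rich and in 1 of 11 in SST-rich cells. IGFBP5 was flagged in the same way: its log2 ratio was 0.38 higher in INS-rich and 0.84 higher in SST-rich than in GCG-rich cells, where it was slightly below 0, and this was not tested either. The GCG-rich direction turned in 2 of 12 alternatives.

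The 3263 barcodes left out for few genes or high mitochondrial share still held counts of the members. IGFBP2 was at 56.8 CPM there, IGFBP3 at 25.2 CPM, IGFBP5 at 368 CPM and IGF1R at 129 CPM, over 12950078 UMIs. IGFBP2 was at 45.5, 86.7 and 43.0 CPM in the left-out barcodes of the CD49a-positive, CD49a-negative and unsorted libraries.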

How the results depend on the processing

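Of 384 values of a member between classes under an alternative, 367 kept their direction and side of the threshold. IGFBP3 turned in INS-rich against TPH1-rich cells with halved gates (0.14), clusters (0.33, called), thinning (0.12) and INS-rich cells under 500 CPM of GCG (0.060), the last chosen after seeing the data. It turned in GCG-rich against SST-rich cells with doubled gates (-0.37) and without the CD49a-negative library, the left-out libraries giving -0.35 to 0.41. IGF1R turned in GCG-rich against TPH1-rich cells without TMM (-0.035), and IGFBP5 in SST-rich against TPH1-rich cells with doubled gates (0.24), thinning (0.042) and without the CD49a-negative library, the left-out libraries giving -0.16 to 0.16. None of these differences was called in the main analysis, and the cause was not tested.

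Left-out libraries gave 11 to 22 axis genes between INS-rich and GCG-rich, 5 to 11 between INS-rich and SST-rich, 14 to 22 between INS-rich and TPH1-rich, 5 to 14 between GCG-rich and SST-rich and 9 to 22 between SST-rich and TPH1-rich cells, and 1 to 3 members between GCG-rich and SST-rich cells. With no replicate block, axis genes called were 15 between INS-rich and GCG-rich, 15 between INS-rich and TPH1-rich and 7 between GCG-rich and SST-rich cells. Thinning gave 8 for the last. The share of all genes called under these alternatives is not given here.

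Members past 2-fold between the sorted libraries were 0 over all cells with the unsorted class composition. In INS-rich cells they were 0 with doubled gates, clusters, thinning, 10 CPM added or cells under 500 CPM of GCG. They were 1 in SST-rich cells with halved gates and 1 in TPH1-rich cells with halved gates, clusters or thinning. With no filter beyond 3 UMIs, members numbered 2 in INS-rich and 1 in GCG-rich cells, and axis genes 4 over all cells, 1 in INS-rich, 2 in GCG-rich, 5 in SST-rich and 8 in TPH1-rich cells. Axis genes in SST-rich cells were 1 with halved or doubled gates or 10 CPM added, and 0 with thinning or equal cell weights. In TPH1-rich cells they were 1 with clusters. The share of all genes past 2-fold under these alternatives is not given here. These counts are therefore not read as a result about the members or axis genes. No cluster had a median cell past the SST gate, so clusters gave no SST-rich value. Depth limits IGFBP4 everywhere, and IGFBP3 in SST-rich cells.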

Other observations

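The 17 clusters of all kept cells, grouped on the same counts and so described without a test, included 2 whose median cell passed the GCG gate. They hold cells outside the gated GCG-rich class too. Cluster 1, of 689 cells led by DCC and GRIN3A, held 136 CPM of IGFBP2 and 181 CPM of IGF1R. Cluster 6, of 554 cells led by GCG and VIM with IGFBP2 itself among its leading genes, held 336 and 88.5 CPM. Clusters 2 and 3, whose median cell passed the INS gate, held 16.7 and 13.1 CPM of IGFBP2, and clusters 0 and 9, which also did, with 10935 and 7740 CPM of GCG and median depths of 72063.5 and 3910 UMIs, held 72.3 and 114 CPM. IGFBP3 was at 195 CPM in cluster 16, of 37 cells with a median cell past the TPH1 gate and a median of 3695 UMIs.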
